A study of Mus musculus with 51 samples.

Results

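The levels of 10 genes of the circadian clock were followed through early fat cell formation in a mouse mesenchymal line: the activators Arntl and Clock, the repressors Per1, Per2, Per3, Cry1 and Cry2, the nuclear receptors Nr1d1 and Nr1d2, and the output gene Dbp. They were chosen by name and matched by symbol to the Ensembl identifiers of the count table, which holds 53801 genes. All 10 were found, and all 10 were among the 17015 genes kept after removal of genes with low counts. The cells are of the mesenchymal line C3H/10T1/2-SAM. In the synergistic activation mediator (SAM) system, for which it is named, Cas9 that cannot cut carries VP64, a second activator is recruited by an MS2-P65-HSF1 fusion, and a guide RNA brings both to the gene it targets. The line was the same in every group, controls included. Cells were transfected with 250 ng of plasmid, which was an empty vector (EV), a plasmid with a guide for Pparg (P), or plasmids with guides for Pparg and Ybx1 (PY). After 48 hours all of them, EV included, were given 5 µM of the PPARG agonist rosiglitazone, and this time point was called day 0. RNA was taken on day 0, day 2 and day 4, which gave 9 groups and 51 libraries from 6 numbered experiments. EV and P each had 5 libraries on day 0, 6 on day 2 and 6 on day 4, and PY had 6, 5 and 6. On day 0 EV lacked experiment 6 and P lacked experiment 2, and on day 2 PY lacked experiment 4. Delivery was by transfection of a single modified line, and the share of cells that took up plasmid is not given in the sources used here. Libraries of a group come from different numbered experiments, but nothing says that these were separate cultures, so p-values measure the spread between these libraries. Day of differentiation, exposure to the drug and time since transfection cannot be told apart in this design. The hour at which cells were harvested is not given in the sources used here.

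The clock of mammalian cells is a feedback loop of transcription. The proteins BMAL1, made from Arntl, and CLOCK pair up and switch on genes that carry E-box sequences, among them the Per and Cry genes and Nr1d1. PER and CRY proteins then enter the nucleus and shut off their own activators, and the delay in this step sets the period. In a second loop the REV-ERB proteins made from Nr1d1 and Nr1d2 repress Arntl through ROR elements, which the ROR receptors activate. DBP, whose gene is driven by the same activators, binds D-box sequences in output genes and in Per3. Cultured fibroblasts run this clock cell by cell, a change of serum or a glucocorticoid aligns the phases of the cells, and clock proteins are known to influence fat cell formation in mice. A bulk library averages over cells, so that in these data fewer cells of a type, less RNA per cell and a loss of alignment between cells cannot be told apart.

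Promoter sequences are shown for 4 members whose windows hold letters of these elements. The windows run from 250 bases before to 50 bases after an annotated gene start, in RefSeq sequence of build GRCm38.p6, and 13 were found for 9 of the 10 members, all but Per2. The letters searched on both strands were the E-box CACGTG, the variant CACGTT, the D-box TTANGTAA, and the ROR element, which is ANNT followed directly by AGGTCA or GGGTCA. Among 32851 mouse promoter windows, 7.15% hold the E-box, 4.68% the variant, 2.32% the D-box and 1.6% the ROR element. Capitals mark the matched letters, and no 2 matches overlap. The second Arntl window (chr7:113207261-113207560, plus strand) holds a ROR element 27 bases after its start. The Cry1 window (chr10:85185005-85185304, minus strand) holds an E-box 60 bases and a variant 79 bases before the start. The Per3 window (chr4:151044616-151044915, minus strand) holds a pair of D-boxes, 205 and 158 bases before the start. The Nr1d1 window (chr11:98775328-98775627, minus strand) holds a variant E-box 28 bases before the start.
Arntl: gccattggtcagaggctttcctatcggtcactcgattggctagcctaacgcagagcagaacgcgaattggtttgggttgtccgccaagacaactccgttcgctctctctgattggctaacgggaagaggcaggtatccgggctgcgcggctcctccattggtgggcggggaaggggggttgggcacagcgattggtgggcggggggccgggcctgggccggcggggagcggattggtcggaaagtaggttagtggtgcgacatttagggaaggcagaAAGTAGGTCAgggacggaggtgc
Cry1: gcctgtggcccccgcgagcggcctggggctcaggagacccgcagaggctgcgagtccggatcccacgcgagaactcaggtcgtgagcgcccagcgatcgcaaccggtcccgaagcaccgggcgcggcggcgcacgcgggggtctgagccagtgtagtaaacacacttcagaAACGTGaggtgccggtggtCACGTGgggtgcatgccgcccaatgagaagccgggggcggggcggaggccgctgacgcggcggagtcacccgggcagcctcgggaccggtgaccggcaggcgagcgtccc
Per3: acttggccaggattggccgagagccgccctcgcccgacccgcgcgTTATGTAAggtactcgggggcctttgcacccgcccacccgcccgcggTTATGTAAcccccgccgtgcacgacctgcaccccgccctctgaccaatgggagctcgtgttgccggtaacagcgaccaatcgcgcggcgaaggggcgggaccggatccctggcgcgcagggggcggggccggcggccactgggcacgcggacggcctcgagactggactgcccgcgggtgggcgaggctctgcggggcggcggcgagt
Nr1d1: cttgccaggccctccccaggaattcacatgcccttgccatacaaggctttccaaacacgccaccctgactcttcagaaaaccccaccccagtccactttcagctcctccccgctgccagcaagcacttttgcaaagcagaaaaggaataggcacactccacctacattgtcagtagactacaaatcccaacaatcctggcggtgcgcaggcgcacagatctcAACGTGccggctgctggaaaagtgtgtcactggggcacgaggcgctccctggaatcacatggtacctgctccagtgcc
Of the other windows, the first one of Per1 holds an E-box and that of Cry2 a variant, both 166 bases before the start. Those of Clock, Nr1d2 and Dbp hold none of the letters searched, which says only that these letters are not in these windows. A match describes the sequence and is not evidence of binding.

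Levels are given in CPM, the counts of a gene scaled to a common effective library size. The targeted genes followed the labels: Pparg stood between 41.7 and 76.6 CPM in EV, between 128 and 506 CPM in P and between 104 and 486 CPM in PY. Ybx1 stood between 415 and 886 CPM in EV and P and between 1364 and 2855 CPM in PY. The total count of a library was lowest in PY day 2 replicate 3, at 3381870, and highest in P day 0 replicate 1, at 114566739. The lowest count of a member was 15, of Dbp, and Clock always had at least 474. Summed markers of fat cells, 7 genes fixed as a list, ran from 12.5 to 26.3 CPM in EV on day 0 and from 49.7 to 464 CPM on day 4. In P they ran from 17.8 to 386 CPM on day 0 and from 2741 to 11580 CPM on day 4, and in PY from 19.0 to 533 and from 1372 to 13480 CPM. The 5 preadipocyte markers summed to between 1578 and 5142 CPM over all groups. Macrophage markers summed to at most 10.1 CPM and epithelial ones to at most 15.2 CPM, with Ptprc, Adgre1 and Epcam below the filter. Endothelial markers ran from 2.78 to 49.0 CPM, with Cdh5 below the filter. No listed marker was at 0 in all libraries.

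Levels were compared between genes as CPM per kilobase of merged exons (CPM per kb), over all 51 libraries. Clock was the most abundant member at 13.8 ± 1.80 CPM per kb (mean ± SD, n = 51), and Nr1d2 followed at 11.1 ± 2.76. Nr1d1 stood at 7.08 ± 3.11 CPM per kb, Cry1 at 5.45 ± 1.68, Per1 at 4.22 ± 1.07 and Cry2 at 3.51 ± 0.683. The lowest were Arntl at 2.66 ± 0.755, Dbp at 2.59 ± 1.23, Per3 at 2.39 ± 1.096 and Per2 at 1.73 ± 0.437 CPM per kb. In all 9 pairs of neighbours in this order the ranges of 1 SD around the means overlapped, so these pooled values do not resolve the order of adjacent genes. The SDs include the changes between days. On day 0 Nr1d2 stood above Clock in EV (14.3 against 13.0) and PY (14.7 against 13.9) and below it in P (13.7 against 14.2). On day 4 Nr1d2 stood below Clock in EV (8.94 against 12.8), P (8.83 against 14.1) and PY (9.14 against 13.9).

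The first comparison asked how the members moved between days within each transfection. From day 0 to day 4, 5 members fell in at least 1 transfection (Arntl, Per2, Cry1, Nr1d1 and Nr1d2), Per3 and Dbp rose in all 3, and Clock, Per1 and Cry2 did not pass in any. In EV 2 members rose and 3 fell at an adjusted p under 0.05 (edgeR quasi-likelihood test, Benjamini-Hochberg adjustment over 17015 genes), where 30.0% of all genes passed, 15.1% higher and 14.9% lower. In P 2 rose and 4 fell, against 37.3% of all genes (18.7% higher, 18.6% lower), and in PY 2 rose and 5 fell, against 37.5% (19.7% higher, 17.8% lower). That is 5, 6 and 7 of 10 members beside shares of that size, and the difference from them was not tested. Over the 10 members the median log2 change was -0.19 in EV, -0.32 in P and -0.42 in PY, beside medians over all genes between -0.01 and 0.02. With a term for each numbered experiment in the fit (the experiment block), 2 rose and 5 fell in each of the 3 transfections. The shares of all genes were then 44.7% in EV, 51.5% in P and 52.2% in PY. The step from 5 to 7 members is thus not seen with the block. By day 2, without the block, 1 member had fallen in EV, 3 in P and 5 in PY and none had risen. Of all genes 7.29%, 14.0% and 22.8% passed in either direction and 4.43%, 6.98% and 11.4% were lower. The sets of experiments behind these counts differ, and PY lacked experiment 4 on day 2. With the experiment block, 1 member was higher and 4 were lower by day 2 in EV, against 22.0% of all genes (10.2% higher, 11.8% lower), and likewise in P, against 28.6% (13.9% higher, 14.7% lower). None of the 10 passed between day 2 and day 4 in any transfection, where 0.0353%, 1.28% and 0% of all genes passed in EV, P and PY. At an unadjusted p under 0.05, 1, 1 and 0 members passed, and DESeq2 called none of them either. With the experiment block Per3 and Dbp were higher in EV, where 20.1% of all genes passed and 10.4% were higher. In P the same genes were higher and Per2 was lower with the block, where 20.2% passed, 9.94% higher and 10.2% lower.

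**Figure D1:**
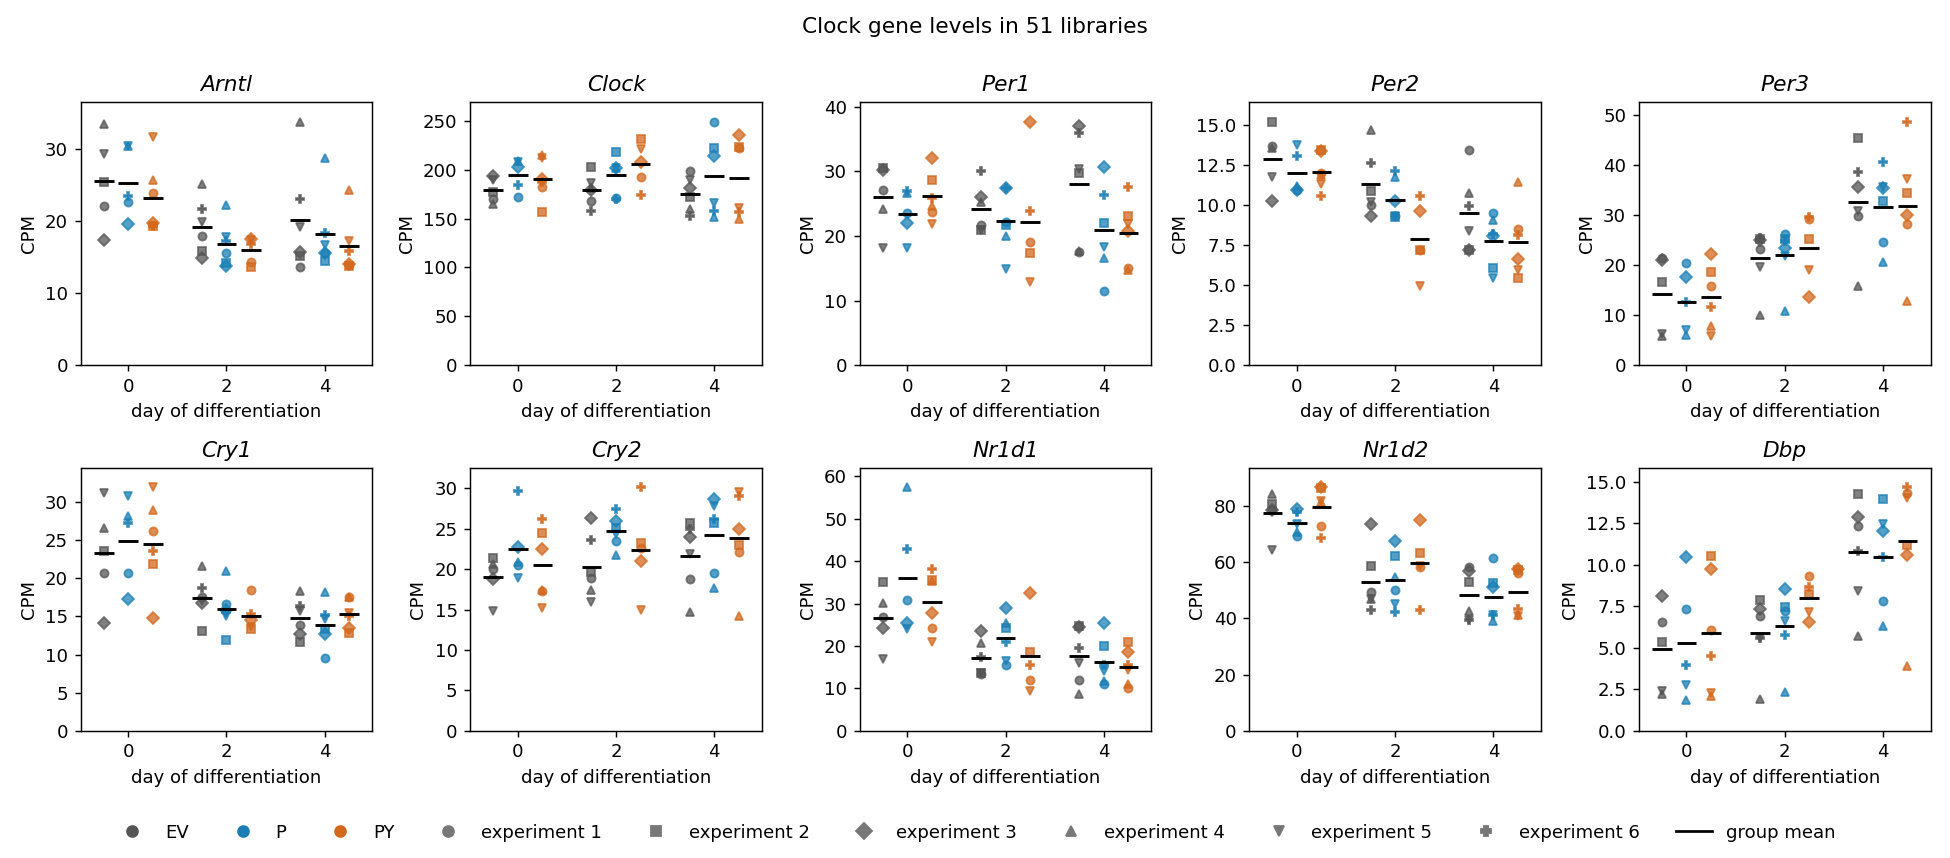
Level of each clock gene in CPM (linear vertical axis from 0) by day of differentiation in EV, P and PY; each point is 1 library and each bar the mean of 5 or 6 libraries. Per3 and Dbp sit higher on day 4 than on day 0 in all 3 transfections, Arntl, Per2, Cry1, Nr1d1 and Nr1d2 sit lower, and Clock keeps to a band of 149 to 249 CPM.

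Arntl (ENSMUSG00000055116, GRCm38 chromosome 7, 113207465 to 113314126, plus strand) encodes BMAL1, the partner without which the loop stops. In EV it stood at 22.2, 25.5, 17.4, 33.4 and 29.3 CPM on day 0 in experiments 1 to 5, and on day 4 it ran from 13.6 to 33.8 CPM with a median of 17.5. In P it stood at 22.7, 19.7, 30.5, 30.4 and 23.5 CPM on day 0 in experiments 1, 3, 4, 5 and 6, and ran from 14.4 to 28.8 CPM on day 4 with a median of 16.2. In PY the day 0 libraries ran from 19.3 to 31.7 CPM with a median of 21.8, and those of day 4 from 13.8 to 24.3 CPM with a median of 14.96. The groups of both days overlapped in every transfection, and the highest day 4 library was that of experiment 4 each time. In PY the level fell 1.41-fold from day 0 to day 4 (log2 change -0.49 ± 0.19 SE, adjusted p = 0.0364), lower in 6 of 6 experiments. That call was lost on leaving out any 1 of 8 of the 12 libraries, with adjusted p-values up to 0.129. In P the log2 change was -0.47 ± 0.20 (adjusted p = 0.0542, and 0.000713 with the experiment block), and in EV -0.35 ± 0.20 (adjusted p = 0.178, and 0.00355 with the block). Leaving out the high library of experiment 4 on day 4 brought both below the threshold, at 0.0151 in EV and 0.00604 in P, as did leaving out P day 0 replicate 2 (0.0317 in P). By day 2 it had already fallen in P (-0.59 ± 0.20, adjusted p = 0.0374) and in PY (-0.55 ± 0.20, adjusted p = 0.0426), where the 5 day 2 libraries, at 14.4, 13.7, 17.5, 17.5 and 16.9 CPM, lay below every library of day 0. Groups of these days lay apart in PY for 9.21% of all genes. PY had no day 2 library of experiment 4, whose EV and P libraries were the highest of that day (25.2 and 22.3 CPM). Both of these values lie within the day 0 range of PY. Each of these day 2 calls was lost on leaving out any 1 of 8 of 11 libraries, with adjusted p-values up to 0.131. In EV the day 2 value was -0.41 ± 0.20 (adjusted p = 0.204, and 0.00485 with the block).

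Clock (ENSMUSG00000029238, chromosome 5, 76209868 to 76304792, minus strand) encodes the other activator, an acetyltransferase as well as a transcription factor. It stood at 179 ± 12.3 CPM in EV on day 0 (SD, n = 5) and at 176 ± 17.6 CPM on day 4 (n = 6), and its 51 libraries lay between 149 and 249 CPM. The log2 change from day 0 to day 4 was -0.03 ± 0.12 in EV, -0.01 ± 0.12 in P and 0.00 ± 0.11 in PY, with 95% intervals of the fold from 0.834 to 1.16, from 0.843 to 1.17 and from 0.858 to 1.17.

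Among the repressors, Per3 was the one that rose. Per3 (ENSMUSG00000028957, chromosome 4, 151003652 to 151044665, minus strand) encodes a PER protein that is not required for the rhythm itself in mice. In EV it stood at 21.5, 16.6, 21.1, 5.90 and 6.19 CPM on day 0 in experiments 1 to 5, and on day 4 it ran from 15.9 to 45.3 CPM with a median of 33.1. In P the day 0 values were 20.5, 17.6, 5.96, 6.95 and 12.6 CPM in experiments 1, 3, 4, 5 and 6, and the day 4 values ran from 20.6 to 40.6 CPM with a median of 34.2. In PY the range moved from 5.77 to 22.3 CPM (median 13.7) to 12.8 to 48.6 CPM (median 32.2). In P every day 4 library lay above every day 0 library, as groups of these days lay apart for 16.5% of all genes, while in EV and PY the day 4 library of experiment 4 lay within the day 0 range. The rise was 2.31-fold in EV (log2 change 1.21 ± 0.35, adjusted p = 0.00832), 2.48-fold in P (1.31 ± 0.35, adjusted p = 0.00307) and 2.37-fold in PY (1.25 ± 0.34, adjusted p = 0.00294). It was present in 5 of 5, 5 of 5 and 6 of 6 experiments, and no library left out alone ended the call. By day 2 the log2 change was 0.60 ± 0.35 in EV, 0.79 ± 0.35 in P and 0.82 ± 0.35 in PY, with adjusted p-values of 0.318, 0.127 and 0.0825, and of 0.044, 0.00621 and 0.0107 with the experiment block. Without PY day 0 replicate 3 the adjusted p in PY was 0.039.

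Per2 (ENSMUSG00000055866, chromosome 1, 91415982 to 91459324, minus strand), which encodes a PER protein that the mouse clock needs, moved the other way. In EV it stood at 13.7, 15.2, 10.3, 13.6 and 11.7 CPM on day 0 and ran from 7.18 to 13.4 CPM on day 4 with a median of 9.18. In P it stood at 10.9, 10.9, 11.2, 13.7 and 13.1 CPM on day 0 and ran from 5.46 to 9.50 CPM on day 4 with a median of 8.14, with no overlap between the days. In PY it ran from 10.5 to 13.4 CPM on day 0 (median 11.9) and from 5.42 to 11.4 CPM on day 4 (median 7.39). The groups of EV and PY overlapped through high day 4 libraries, those of experiments 1 and 4 in EV and that of experiment 4 in PY. It fell 1.36-fold in EV (log2 change -0.45 ± 0.18, adjusted p = 0.0488), 1.55-fold in P (-0.63 ± 0.18, adjusted p = 0.00409) and 1.56-fold in PY (-0.64 ± 0.17, adjusted p = 0.00249), lower in every experiment with both days. The EV call was lost on leaving out any 1 of 8 of the 11 libraries, with adjusted p-values up to 0.128. On day 2 Per2 had fallen in PY (-0.63 ± 0.18, adjusted p = 0.00948), with libraries of 7.19, 7.17, 9.64, 4.97 and 10.5 CPM below all those of day 0. The groups barely parted, at 10.53 CPM on day 2 and 10.54 CPM on day 0, both in experiment 6. Groups of these days lay apart in PY for 9.21% of all genes, and PY had no day 2 library of experiment 4. Without PY day 2 replicate 4, the library of experiment 5 and the lowest of the group, the adjusted p of that fall was 0.0571. In EV and P the day 2 log2 changes were -0.20 ± 0.18 and -0.21 ± 0.17 and did not pass.

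Per1 (ENSMUSG00000020893, chromosome 11, 69095217 to 69109960, plus strand), a PER gene that serum and glucocorticoids induce quickly, did not pass between days in any transfection. Its day 0 levels were 26.1 ± 5.09 CPM in EV (n = 5), 23.4 ± 3.64 in P (n = 5) and 26.1 ± 3.67 in PY (n = 6). On day 4 they were 28.0 ± 8.61, 20.9 ± 6.91 and 20.5 ± 4.96 CPM (n = 6 each). The log2 changes were 0.11 ± 0.22, -0.17 ± 0.22 and -0.34 ± 0.21, with adjusted p-values of 0.755, 0.582 and 0.201.

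Of the CRY genes, which encode the stronger repressors of the activator pair, Cry1 fell and Cry2 did not pass. Cry1 (ENSMUSG00000020038, chromosome 10, 85131700 to 85185064, minus strand) stood in EV at 20.7, 23.6, 14.1, 26.7 and 31.2 CPM on day 0 and ran from 11.7 to 18.4 CPM on day 4 with a median of 14.8. In P it stood at 20.7, 17.2, 28.2, 30.8 and 27.3 CPM on day 0 and ran from 9.50 to 18.2 CPM on day 4 with a median of 14.0. In PY it ran from 14.8 to 32.0 CPM on day 0 (median 24.9) and from 12.8 to 17.5 CPM on day 4 (median 15.2). Overlap between the days came from the day 0 libraries of experiment 3, which were the lowest of day 0 in all 3 transfections. The fall was 1.58-fold in EV (log2 change -0.66 ± 0.17, adjusted p = 0.00359), 1.78-fold in P (-0.83 ± 0.17, adjusted p = 0.000205) and 1.61-fold in PY (-0.69 ± 0.17, adjusted p = 0.0011), in 5 of 5, 5 of 5 and 6 of 6 experiments. No library left out alone ended these calls. It had fallen by day 2 in P (-0.63 ± 0.17, adjusted p = 0.0108) and PY (-0.71 ± 0.18, adjusted p = 0.00305), and in EV the day 2 value was -0.42 ± 0.17 (adjusted p = 0.131, 0.0132 with the block and 0.038 without EV day 0 replicate 3). The P call on day 2 was lost without P day 0 replicate 4, of experiment 5 (adjusted p = 0.0538).

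Cry2 (ENSMUSG00000068742, chromosome 2, 92403646 to 92434043, minus strand) stood at 19.1 ± 2.59 CPM in EV, 22.5 ± 4.21 in P and 20.5 ± 4.47 in PY on day 0, and at 21.7 ± 4.21, 24.3 ± 4.55 and 23.8 ± 5.60 CPM on day 4. The log2 changes were 0.18 ± 0.17, 0.11 ± 0.17 and 0.22 ± 0.16, with adjusted p-values of 0.459, 0.655 and 0.31. The 95% intervals of the fold ran from 0.896 to 1.43, from 0.853 to 1.36 and from 0.93 to 1.46. The fit without a block, from which they come, does not exclude a change within these bounds. D930015M05Rik, a transcript on the opposite strand, shares 4.67% of the exon bases of Cry2, and the strand setting of the counting is not given in the sources used here.

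Both REV-ERB genes fell. Nr1d2 (ENSMUSG00000021775, chromosome 14, 18204054 to 18239127, minus strand) encodes REV-ERB beta. It stood at 79.1, 80.8, 78.6, 84.5 and 64.2 CPM in EV on day 0 and ran from 39.4 to 58.5 CPM on day 4, with a median of 47.9. In P it stood at 69.3, 79.2, 70.7, 73.6 and 77.8 CPM on day 0 and ran from 39.0 to 61.6 CPM on day 4 with a median of 46.1. In PY the range moved from 68.6 to 86.8 CPM (median 81.6) to 40.9 to 57.5 CPM (median 49.8). In each transfection every day 4 library lay below every day 0 library, and groups lay apart in either direction for 12.7% and 11.1% of all genes in EV and PY. The fall was 1.602-fold in EV (log2 change -0.68 ± 0.14, adjusted p = 0.000338), 1.55-fold in P (-0.64 ± 0.14, adjusted p = 0.00044) and 1.61-fold in PY (-0.69 ± 0.14, adjusted p = 8.76e-05), and no library left out alone ended these calls. In the fit without a block Nr1d2 was also the only member that had fallen by day 2 in all 3. Its log2 changes were -0.54 ± 0.14, -0.47 ± 0.14 and -0.42 ± 0.14, with adjusted p-values of 0.013, 0.0206 and 0.0276. With the experiment block 4 members were lower in EV, 4 in P and 5 in PY, beside 11.8%, 14.7% and 18.3% of all genes. In EV these were Nr1d2, Arntl, Cry1 and Nr1d1. Without experiment 1, 2 or 4 the EV call of Nr1d2 was lost. In P the day 2 call was lost without replicate 5 or replicate 6 of P day 2 (adjusted p = 0.0768 and 0.0751), and in PY on leaving out any 1 of 5 of 11 libraries (adjusted p up to 0.115).

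Nr1d1 (ENSMUSG00000020889, chromosome 11, 98767932 to 98775333, minus strand) encodes REV-ERB alpha, whose level is known to rise late in fat cell formation in cultured mouse cells. In EV it stood at 26.7, 35.0, 24.2, 30.0 and 17.0 CPM on day 0 and ran from 8.55 to 24.7 CPM on day 4 with a median of 17.8. In P it stood at 30.9, 25.3, 57.5, 24.1 and 42.8 CPM on day 0 and ran from 11.01 to 25.4 CPM on day 4 with a median of 14.8. In PY it ran from 21.01 to 38.1 CPM on day 0 (median 31.6) and from 10.2 to 21.03 CPM on day 4 (median 14.95). The highest day 0 value was that of P in experiment 4, and in PY the groups only just overlapped. It fell 2.22-fold in P (log2 change -1.15 ± 0.27, adjusted p = 0.000806) and 2.02-fold in PY (-1.02 ± 0.26, adjusted p = 0.00199), in 4 of 5 and 6 of 6 experiments. In EV the log2 change was -0.61 ± 0.27 (adjusted p = 0.0849, 0.00979 with the block and 0.0467 without EV day 4 replicate 2). The difference between the change in P and that in EV was -0.55 ± 0.38 on the log2 scale and did not pass (adjusted p = 1). On day 2 it had fallen in PY (-0.85 ± 0.28, adjusted p = 0.0244), a call lost on leaving out any 1 of 6 of 11 libraries, and in EV and P the values were -0.65 ± 0.27 and -0.73 ± 0.27 (adjusted p = 0.138 and 0.0618, and 0.0163 and 0.00269 with the block). The P value passed on leaving out any 1 of 3 of its 11 libraries (P day 0 replicates 2 and 4 and P day 2 replicate 3). Thra, the thyroid hormone receptor gene on the opposite strand, shares 8.55% of the exon bases of Nr1d1. Over the same days Thra rose, by 1.63 ± 0.33 in EV, 1.45 ± 0.33 in P and 1.29 ± 0.31 in PY on the log2 scale, so the neighbours moved in opposite directions.

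Dbp (ENSMUSG00000059824, chromosome 7, 45705088 to 45710203, plus strand) encodes the D-box activator. In EV it stood at 6.57, 5.37, 8.13, 2.23 and 2.41 CPM on day 0 in experiments 1 to 5, and on day 4 it ran from 5.74 to 14.3 CPM with a median of 11.6. In P the day 0 values were 7.32, 10.5, 1.84, 2.74 and 3.97 CPM in experiments 1, 3, 4, 5 and 6, and the day 4 values ran from 6.32 to 14.0 CPM with a median of 11.2. In PY the range moved from 2.09 to 10.5 CPM (median 5.28) to 3.88 to 14.7 CPM (median 12.6). The day 4 library of experiment 4 lay within the day 0 range in every transfection, in P together with those of experiments 1 and 6, and the level was higher on day 4 in every experiment with both days. The rise was 2.23-fold in EV (log2 change 1.15 ± 0.41, adjusted p = 0.0296), 1.99-fold in P (0.99 ± 0.40, adjusted p = 0.0485) and 2.00-fold in PY (0.998 ± 0.388, adjusted p = 0.0382). These calls were lost on leaving out any 1 of 5 of 11, 7 of 11 and 8 of 12 libraries, with adjusted p-values up to 0.162, and with the experiment block the adjusted p-values were between 8.66e-05 and 0.00018. Sphk2 on the opposite strand shares 18.01% of the exon bases of Dbp. It did not pass over the same days, with log2 changes of -0.43 ± 0.18, -0.20 ± 0.18 and -0.29 ± 0.17.

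**Figure D2:**
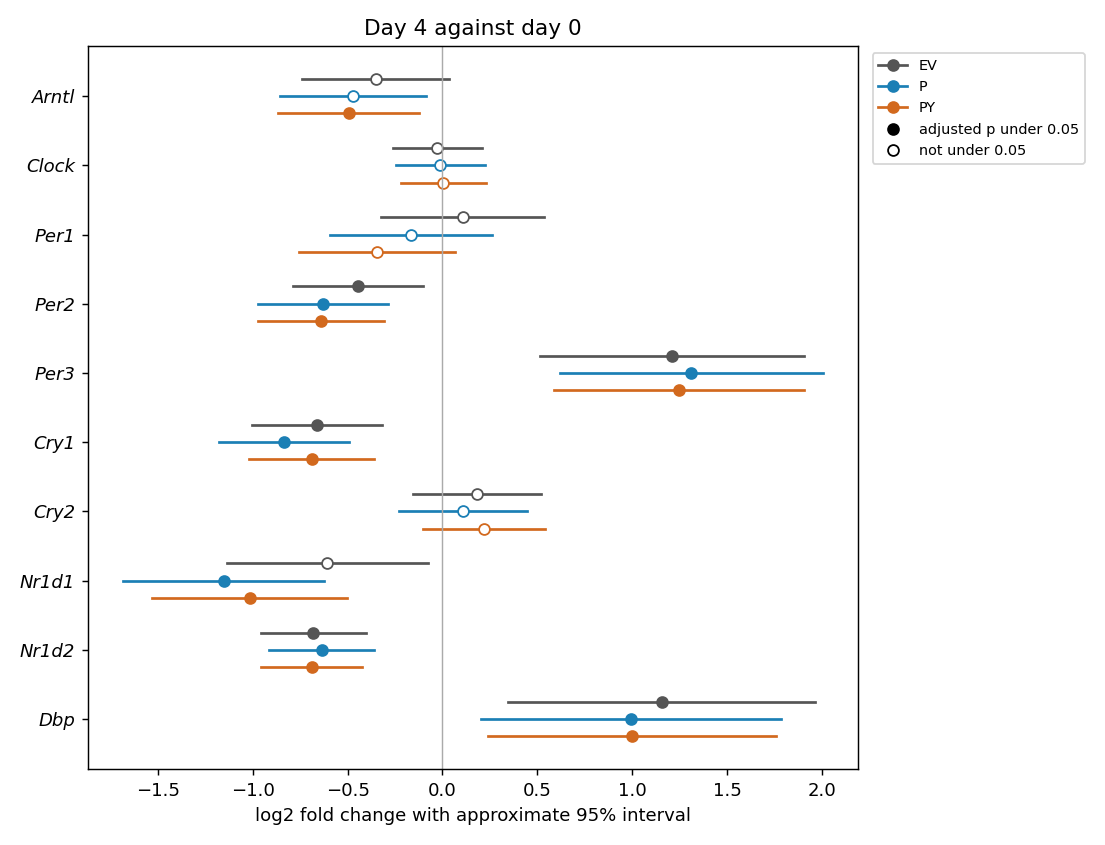
Log2 fold change of each clock gene from day 0 to day 4 (horizontal axis) in EV, P and PY, with approximate 95% intervals; filled points have an adjusted p under 0.05. Per3 and Dbp lie near 1 in all 3 transfections, Cry1, Nr1d1, Nr1d2, Per2 and Arntl lie below 0, and Clock lies at 0 with the narrowest intervals.

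The fat cell markers moved with day as well, and far more in P and PY than in EV, as given above. From day 0 to day 4, 2 of 5 preadipocyte markers rose in EV, 2 in P and 1 in PY and none fell. The shares of all genes that rose were 15.1%, 18.7% and 19.7%. Of the 3 endothelial markers tested, 2 fell in EV, 2 in P and 1 in PY and none passed as higher. The shares of all genes that fell were 14.9%, 18.6% and 17.8%. With the experiment block as many were lower, and 1 was higher in each transfection, beside 22.3%, 25.3% and 26.1% of all genes. The median of the summed endothelial markers rose, from 14.8 to 36.3 CPM in EV, 8.45 to 29.4 in P and 13.8 to 29.2 in PY. Against EV, 1 preadipocyte marker was lower in PY on days 2 and 4, beside 0.394% and 0.793% of all genes. With the experiment block 3 were lower on each day, beside 3.38% and 5.57%. The part of these markers in the members' values was not tested. No member passed in the tests of whether the P against EV difference changed from day 0 to day 2 or to day 4, or the PY against P difference from day 0 to day 4, where 0.0588%, 0.288% and 0% of all genes passed. A p that misses the threshold does not show that the changes were alike. The part of fat cell formation in the members' changes was not tested.

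Other genes of the clock were read from a list in 3 groups: 13 partners and loop genes, of which 11 passed the filter (Npas2 and Hlf did not), 6 genes of protein turnover and 3 outputs. From day 0 to day 4, 3 of the 11 partners rose and 4 fell in EV, 5 rose and 4 fell in P, and 4 rose and 4 fell in PY, where 30.0%, 37.3% and 37.5% of all genes passed. Ciart, which encodes a repressor of the activator pair, fell most. It stood at 7.25 ± 3.07 CPM in EV on day 0 (SD, n = 5) and at 1.76 ± 0.593 CPM on day 4 (n = 6), with no overlap between the days in any transfection. The fall was 4.19-fold in EV, 4.07-fold in P and 4.14-fold in PY (adjusted p = 1.96e-05, 1.06e-05 and 4.47e-06). Nfil3, the D-box repressor, fell from 61.9 ± 27.4 to 26.0 ± 11.2 CPM in EV, by 2.39-fold, and by 2.36-fold in both P and PY (adjusted p = 0.00327, 0.00267 and 0.00183). Bhlhe40, whose protein competes at E-boxes, and Cipc, which encodes an inhibitor of CLOCK, were the other partners that fell in all 3. Their log2 changes were -0.43, -0.68 and -0.63 for Bhlhe40 and -0.79, -0.66 and -0.66 for Cipc.

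Tef, a D-box activator of the same family as Dbp, rose with it. Tef went from 86.5 ± 24.9 to 142 ± 20.7 CPM in EV (1.64-fold, adjusted p = 0.01), and rose 1.67-fold in P and 1.61-fold in PY (adjusted p = 0.00561 and 0.00657). Rora, which activates Arntl through ROR elements, rose by 0.76 ± 0.27 in EV, 0.86 ± 0.27 in P and 0.72 ± 0.26 in PY on the log2 scale (adjusted p = 0.0278, 0.0103 and 0.0234). Arntl2, the paralogue of Arntl, rose in EV and P (0.69 ± 0.16 and 0.42 ± 0.16) and had 0.29 ± 0.15 in PY (adjusted p = 0.126). Rorb rose in P and PY at low level, from 0.403 ± 0.210 to 1.19 ± 0.672 CPM in P and from 0.361 ± 0.358 to 1.52 ± 0.695 CPM in PY.

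Of the turnover genes, Csnk1e, which encodes a kinase that marks PER proteins, fell in all 3 (log2 changes of -0.65, -0.67 and -0.50). Fbxl21, which encodes a ubiquitin ligase subunit that acts on CRY proteins, rose in EV (0.92 ± 0.35) and PY (1.36 ± 0.33) and had 0.79 ± 0.33 in P (adjusted p = 0.0565). Of the outputs only Por, which encodes the electron donor of cytochromes P450, passed, in PY (0.56 ± 0.22, adjusted p = 0.0379). By day 2, Ciart, Nfil3 and Bhlhe40 had fallen in all 3 transfections. Cipc and Csnk1e had fallen in PY, and Rorb had risen in P and PY.

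Genes that serum or glucocorticoids induce, agents known to set the phase of cultured cells, were read from a list of 10. From day 0 to day 4, 5 fell in EV, 6 fell and 1 rose in P, and 5 fell and 1 rose in PY, beside 14.9%, 18.6% and 17.8% of all genes that fell, with median log2 changes of -1.03, -1.42 and -1.09. Egr1, an immediate early gene of serum, stood at 212 ± 128 CPM in EV on day 0 and at 42.0 ± 20.4 CPM on day 4, with no overlap between the days. It fell 5.08-fold in EV, 9.23-fold in P and 7.04-fold in PY (adjusted p = 0.000323, 3.72e-06 and 1.11e-05). Sgk1, a glucocorticoid-induced kinase gene, fell from 266 ± 158 to 61.1 ± 61.7 CPM in EV with overlapping groups (log2 change -2.12 ± 0.76, adjusted p = 0.0292), and by 2.45 ± 0.76 and 1.87 ± 0.73 in P and PY. Zbtb16, another glucocorticoid target, was the one that rose, from 0.0117 ± 0.0219 to 1.42 ± 1.04 CPM in P and from 0.0476 ± 0.0692 to 1.80 ± 1.24 CPM in PY. By day 2, 1 of the 10 had fallen in EV, 3 in P and 5 in PY, beside 4.43%, 6.98% and 11.4% of all genes. With the experiment block 6, 5 and 6 had, beside 11.8%, 14.7% and 18.3% of all genes. The part of these stimuli in the members' levels on day 0 was not tested.

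The second comparison asked whether activation of Pparg, alone or with Ybx1, shifted the clock genes. EV serves as the control of both P and PY, so those comparisons share libraries. None of the 10 members passed in any of the 9 comparisons between transfections. In P against EV 0.00588%, 2.84% and 5.38% of all genes passed on days 0, 2 and 4, in PY against P 0.0294%, 0.0118% and 0.0176%, and in PY against EV 0.0470%, 4.74% and 7.83%. At an unadjusted p under 0.05, Per1 passed in P and in PY against EV on day 4, Per2 passed on day 2 in PY against both EV and P, and no other member did in any of the 9. With DESeq2 Per2 passed in PY against EV on day 2 (adjusted p = 0.0405), and no member did in the other 8.

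Per2 on day 2 stood at 10.0, 10.9, 9.30, 14.7, 10.2 and 12.6 CPM in EV in experiments 1 to 6 and at 7.19, 7.17, 9.64, 4.97 and 10.5 CPM in PY in experiments 1, 2, 3, 5 and 6. The groups overlapped, with PY lower in 4 of 5 experiments. The log2 difference was -0.53 ± 0.18 (adjusted p = 0.0821), and with the experiment block it was -0.53 ± 0.16 (adjusted p = 0.0254, with 10.2% of all genes passing). Without PY day 2 replicate 5, of experiment 6, the adjusted p without a block was 0.0323. On day 4 Per2 differed from EV by -0.30 ± 0.17 in P and by -0.30 ± 0.17 in PY, and both adjusted p-values were above 0.05 (0.502 and 0.392).

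Per1 on day 4 stood at 17.5, 29.7, 37.1, 17.6, 30.4 and 35.9 CPM in EV in experiments 1 to 6. In the same order it stood at 11.6, 22.0, 30.7, 16.7, 18.2 and 26.4 CPM in P, and at 15.02, 23.2, 20.8, 14.7, 21.9 and 27.6 CPM in PY. The groups overlapped widely, and both P and PY were lower than EV in 6 of 6 experiments. The log2 difference was -0.42 ± 0.21 in P (adjusted p = 0.391) and -0.45 ± 0.21 in PY (adjusted p = 0.246). A term for each experiment on each day compares libraries of the same experiment and day only, and with it the log2 differences were -0.42 in P (adjusted p = 0.00323) and -0.42 in PY (adjusted p = 0.00236).

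With that closer pairing 9 differences of members passed in all, each of them against EV and none between PY and P. They were Cry2 (0.30 on the log2 scale, adjusted p = 0.0116) and Nr1d1 (0.35, 0.0248) in P on day 2, and Per1 and Per2 (-0.30, adjusted p = 0.0364) in P on day 4. In PY they were Clock (0.20, adjusted p = 0.0333) and Per2 (-0.53, 0.00118) on day 2, and Arntl (-0.25, 0.0122), Per1 and Per2 (-0.31, 0.0248) on day 4. The backgrounds were 16.6% and 24.2% of all genes in P on days 2 and 4 and 24.0% and 31.9% in PY, so the 2 or 3 members of 10 that passed are near the share of all genes. No member passed with it on day 0, where 0.153% of all genes did in P and 1.14% in PY against EV, or in PY against P, where 0.123%, 0.0353% and 0.0294% did on days 0, 2 and 4. Among the clock genes that are no members, Nampt, which encodes an enzyme of NAD synthesis, was higher than EV in P and PY on days 2 and 4 (log2 differences between 0.92 and 1.43), and Por was so on day 4 (1.76-fold in P and 2.00-fold in PY). Rorb was higher in both on day 2, and Bhlhe41 in P on day 2 (0.70 ± 0.19, adjusted p = 0.0293). For Per3 and Dbp the 95% intervals of the fold on day 4 were wide, from 0.622 to 1.51 and from 0.585 to 1.63 in P against EV. They are from the fit without a block, whose spread includes that between experiments, and that fit does not exclude differences within them. Neither gene passed with the closer pairing.

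**Figure D3:**
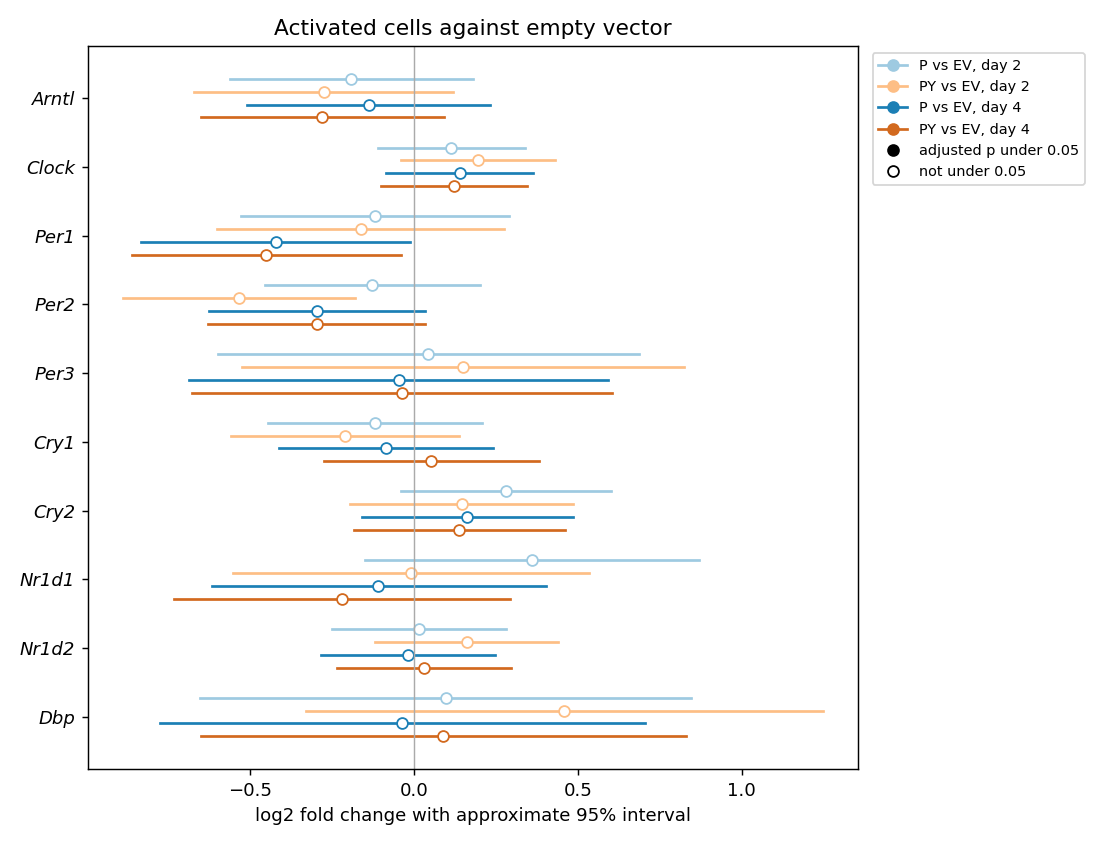
Log2 difference of each clock gene between P or PY and EV on days 2 and 4 (horizontal axis), with approximate 95% intervals from the fit without a block. All points are open because no adjusted p is under 0.05, and the lowest values are those of Per2 in PY on day 2 and of Per1 on day 4.

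The third comparison was between experiments. Libraries of the same experiment and day, which differ only in the plasmid, lay close together: after removal of the group means their deviations over the 10 members correlated with a median r of 0.835, against 0.601 over all genes (48 pairs). The correlation was not computed for other sets of 10 genes, so whether the members differ from such sets was not tested. All 10 members differed between experiments (adjusted p between 2.22e-09 for Arntl and 0.0301 for Clock), where 83.1% of all genes did, so the count itself does not set them apart. Tested day by day, Clock, Per2 and Nr1d2 did not pass on day 0 and all others did (background 69.6%), and all 10 passed on day 2 and on day 4 (backgrounds 75.1% and 80.6%). Arntl had the smallest p of the members and stood at rank 1204 of 17015 genes.

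Experiment 4 had high Arntl and Cry1 and low Per3 and Dbp on every day. Its Dbp was 2.05 CPM on day 0 (mean of 3 libraries), 2.11 on day 2 (2 libraries) and 5.31 on day 4 (3 libraries), the lowest mean of the 6 experiments each time. The highest means were 9.46 CPM in experiment 3 on day 0 and 7.87 and 13.1 CPM in experiment 2 on days 2 and 4, so the spread between experiments was 4.61-fold, 3.73-fold and 2.47-fold. On all 3 days the libraries of experiment 4 lay below all others for Dbp. Its Arntl was 29.9, 23.8 and 29.0 CPM on days 0, 2 and 4, and on days 2 and 4 all its libraries lay above the others, whose ranges were 13.7 to 21.7 and 13.6 to 23.2 CPM. Its Per3 was 6.59, 10.5 and 16.4 CPM, below all others on days 2 and 4. Its Cry1 was 27.9, 21.3 and 18.01 CPM.

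For Arntl, Cry1, Per3 and Dbp, experiment 5 lay near experiment 4 on day 0 and apart from it on day 4. On day 0 its Arntl was 30.5 CPM, its Cry1 31.3 CPM, the highest of all, its Per3 6.31 CPM and its Dbp 2.48 CPM. By day 4 its Per3 had reached 34.5 CPM and its Dbp 11.6 CPM, against 16.4 and 5.31 CPM in experiment 4, while its Arntl stood at 17.7 CPM. Within experiment 5 the day 4 mean of Per3 was thus among those of experiments 1, 2, 3 and 6, which ran from 27.6 to 42.6 CPM. For all 10 members the differences between experiments changed between days (adjusted p between 3.24e-06 for Nr1d1 and 0.00251 for Arntl), as they did for 66.9% of all genes. The total counts of experiments 4 and 5 lay within the range of the other experiments.

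**Figure D4:**
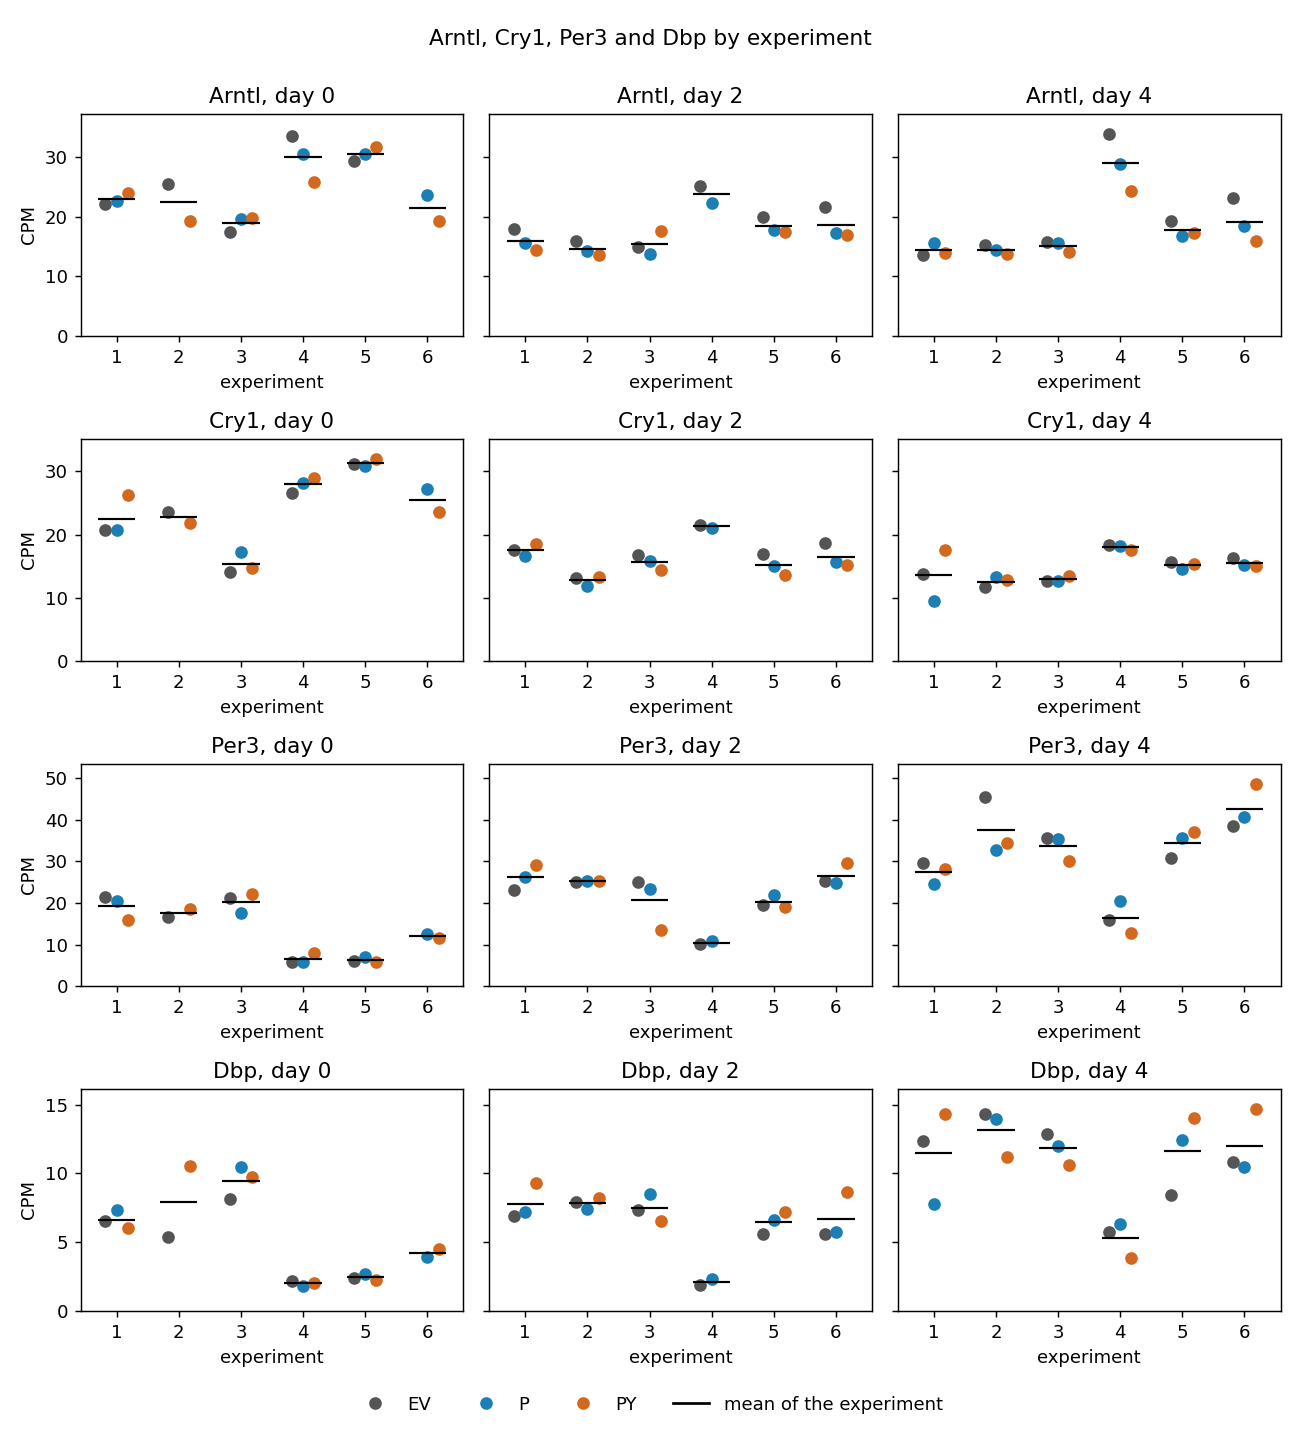
Arntl, Cry1, Per3 and Dbp in CPM (vertical axis from 0, the same for the 3 days of a gene) in experiments 1 to 6 on days 0, 2 and 4; points are single libraries of EV, P and PY and bars the mean of an experiment. Experiment 4 is low for Dbp and high for Arntl throughout, and for these 4 genes experiment 5 lies near it on day 0.

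The other members were ordered otherwise. On day 0 Nr1d1 was highest in experiment 4 (40.95 CPM) and lowest in experiment 5 (20.7 CPM), and Per1 was lowest in experiment 5 (19.4 CPM). On day 4 Per1 ran from 14.7 CPM in experiment 1 to 30.0 CPM in experiment 6, and Nr1d1 from 10.5 CPM in experiment 4 to 22.8 CPM in experiment 3. Nr1d2, close to even on day 0 (73.2 to 83.7 CPM), split on day 4 into 58.7, 54.3 and 55.2 CPM in experiments 1 to 3 and 41.0, 40.5 and 41.4 CPM in experiments 4 to 6. The means of Clock on day 4 were 223, 206 and 210 CPM in experiments 1 to 3 and 153, 172 and 156 CPM in experiments 4 to 6. Its single libraries overlapped, with EV at 172 and 181 CPM in experiments 2 and 3 and at 189 CPM in experiment 5. On the same day Per2 ran from 6.23 CPM in experiment 2 to 10.5 CPM in experiment 1, and Cry2 from 15.6 CPM in experiment 4 to 26.8 CPM in experiment 6. What differed between experiments, such as the hour of harvest, is not given in the sources used here, and its part in these values was not tested.

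Across the 6 experiments, mean deviations from the group means were compared between Arntl and each of the other 9 members, and p-values are from exact permutation tests, two-sided and adjusted over the 9 relations. Experiments high in Arntl were low in Dbp (Pearson r = -0.988, p = 0.00139, adjusted p = 0.00625; Spearman rho = -1, p = 0.00278, adjusted p = 0.0125). They were high in Cry1 (r = 0.947, p = 0.00139, adjusted p = 0.00625; rho = 1, p = 0.00278, adjusted p = 0.0125). Per3 was lower with higher Arntl (r = -0.929, p = 0.0222, adjusted p = 0.0667; rho = -0.6, p = 0.242), a relation that missed the threshold. Of these p-values 0.00139 is the smallest that 6 experiments allow for r. Experiments 4 and 5 are the farthest from the median of Arntl. Without them r over 4 experiments was -0.993 for Dbp and 0.907 for Cry1, but 0.237 for Per3, whose relation thus rests on those experiments. Over the same 4 experiments r was -0.998 for Clock and -0.997 for Nr1d2, whose relations over all 6 did not pass, so that high values there are not particular to Dbp and Cry1. Over days 2 and 4 alone r was -0.936 for Dbp and 0.928 for Cry1. The remaining 6 relations had adjusted p-values between 0.269 and 0.549. How many of all genes reach such an r with Arntl over the 6 experiments was not counted, and 83.1% of all genes differed between experiments. Over the 51 libraries, genes outside the clock followed Arntl more closely (Syk r = 0.899, Pik3r3 -0.902) than Dbp (-0.786) or Cry1 (0.728) did. These relations are thus not shown to be particular to clock genes.

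**Figure D5:**
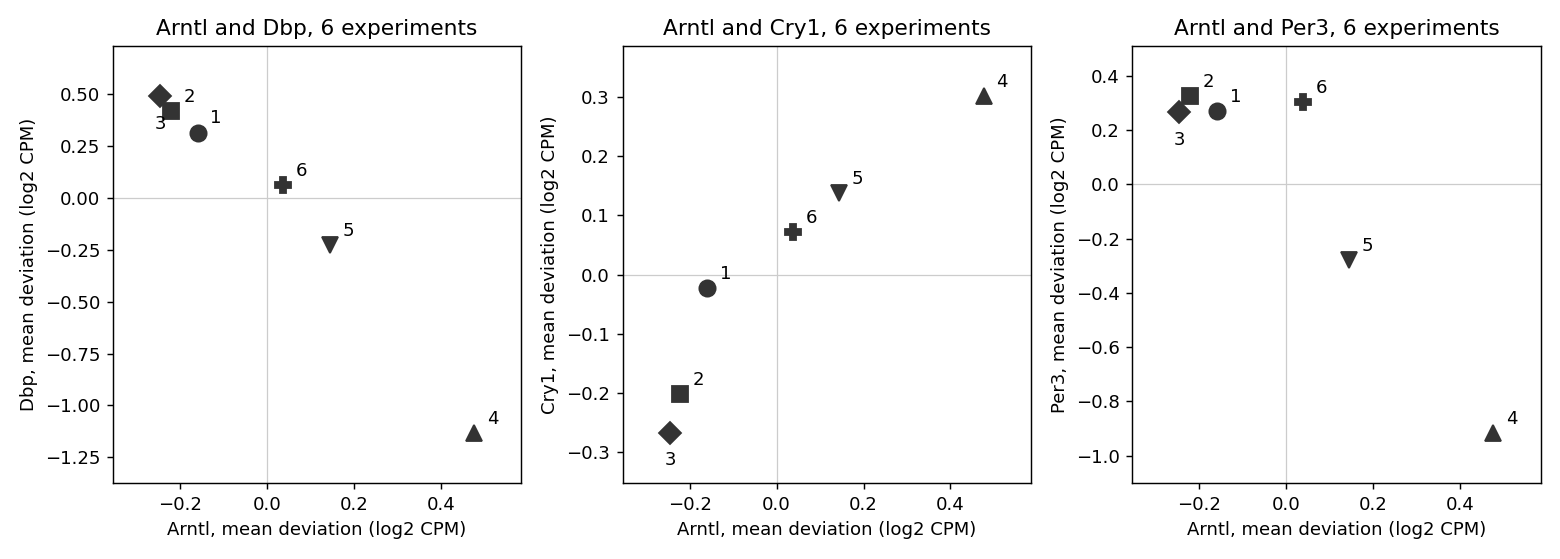
Mean deviation of Dbp, Cry1 and Per3 (vertical axes) against that of Arntl (horizontal axis) in each of the 6 numbered experiments, in log2 CPM after removal of the means of the 9 groups. Dbp declines along Arntl from experiment 3 to experiment 4, Cry1 climbs, and Per3 is level in 4 experiments and low in experiments 5 and 4.

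The genes whose deviations from the group means followed those of a member most closely were listed over the 51 libraries and the 9709 or 9710 other genes with a mean of at least 3 log2 CPM, as a description, since libraries of an experiment share their source. The closest to Arntl were Syk (r = 0.899), Cfap43 (0.895), Nfil3 (0.894), Rnd1 (0.894) and Skil (0.890), and the most opposed were Pik3r3 (-0.902), Ebf1 (-0.892) and Gtf2i (-0.892). Nfil3 encodes a repressor that competes with DBP at D-boxes. The closest to Dbp were Boc (0.939), Fzd4 (0.935), 5930403N24Rik (0.933), Ednra (0.931) and Sesn3 (0.930), with Heatr1 (-0.945), Tsr1 (-0.935) and Nup153 (-0.921) at the other end. Dbp and Per3 followed each other with r = 0.922, and Dbp and Arntl went in opposite directions with r = -0.786. The closest to Nr1d1 were Whrn (0.905), Ptpn23 (0.900), Cnot3 (0.883), Crtc2 (0.879) and Fbrs (0.878), and the most opposed Scfd1 (-0.837), Ostc (-0.831) and Vamp7 (-0.826). Among the members Nr1d1 was closest to Per1 (0.776) and Cry2 (0.584), and with Arntl and Dbp its r was -0.257 and 0.0487.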

How the data were processed

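RNA was sequenced from 51 libraries, and the authors deposited raw counts per gene, which were used as deposited. Libraries were made with a stranded total RNA kit after ribosomal RNA removal, per the labels' protocols. Reads were handled with STAR 2.5.3a, featureCounts 1.5.2 and edgeR 3.22.0 on mm10 (GRCm38), per the submitters' processing notes. The annotation release, the strand setting and the handling of reads with several matches are not given in the sources used here. Of 53801 identifiers 53706 matched GENCODE M21, which gave names, coordinates and exon lengths, and 95 did not. No deposited column of values was left unused (0 columns).

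The 10 members and the lists of other genes were chosen with earlier results of these data known. In R 4.3.3 with edgeR 4.0.16 and limma 3.58.1, genes were kept by filterByExpr (17015 of 53801), scaled by TMM and fitted with 1 mean for each of 9 groups over all 51 libraries. Day, transfection and change-of-difference contrasts (21 in all) were tested with the quasi-likelihood F-test, and p-values were adjusted by Benjamini-Hochberg over all 17015 genes with a threshold of 0.05. CPM were computed from the deposited counts and effective library sizes, with a prior count of 2 for log2 CPM only. Standard errors were back-calculated as the log2 change over the square root of F, so the 95% intervals are approximate. Fitted folds of genes near 0 depend on the prior count. Errors cover the spread between libraries.

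The labels number 6 experiments. Libraries of the same experiment deviated together from their group means over all genes (median r = 0.364 over 192 pairs, against -0.103 over 1083 pairs of different experiments), and most of all on the same day (0.601, 48 pairs). Fits with a replicate block for the experiment, or for the experiment on each day, were alternatives. The biological coefficient of variation was 0.325 without a block, 0.202 with the first and 0.129 with the second.

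Other alternatives were DESeq2 1.42.0, its size factor method (RLE) in edgeR, no filter, a filter of 1 CPM in 5 libraries, a fit on the compared groups alone, and leaving out each library or each experiment. Leaving out experiments 4 and 5, leaving out the 2 lowest totals, and the tests of differences between experiments within each day and of their change between days were added after seeing the data. The scripts were tested on simulated data. Named genes were all members, every gene of the clock list that passed in a comparison (some of which are not reported here), up to 3 of the serum and glucocorticoid list, and for Arntl, Nr1d1 and Dbp the 5 genes with the highest and the 3 with the lowest r.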

Additional observations from a re-analysis of the deposited data

Results flagged for a closer look

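In 3 of the 90 groups of libraries examined (10 members in 9 groups), 1 library lay far from the others, and chance gives about 1 in 20. Arntl stood at 28.8 CPM in P day 4 replicate 4, where the other 5 libraries ran from 14.4 to 18.4 CPM, and at 24.3 CPM in PY day 4 replicate 4, where the others ran from 13.8 to 17.2 CPM. Per3 stood at 10.8 CPM in P day 2 replicate 4, below the others at 21.8 to 26.2 CPM. All 3 libraries are from experiment 4.

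For all 10 members the differences between experiments were not the same on the 3 days, by the test of the change itself. The adjusted p-values (edgeR quasi-likelihood test with a term for each experiment and day) were 3.24e-06 for Nr1d1, 5.87e-06 for Per3, 0.000139 for Clock, 0.000215 for Nr1d2 and 0.000332 for Per1. They were 0.000491 for Dbp, 0.000812 for Cry2, 0.00122 for Cry1, 0.00235 for Per2 and 0.00251 for Arntl. Of all genes 66.9% passed this test.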

How the results depend on the processing

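No difference of a member that passed changed direction under any alternative that was run. Of the 27 differences of members that passed, 682 recomputations left 543 past the threshold and 139 not. Many of those lost came on leaving out a single library. Among the other settings, losses were most frequent without experiment 5 (13), without experiments 4 and 5 (12) and without experiment 6 (11). For the 24 differences that passed only with a block, 45 of 621 recomputations passed. The cause of these moves was not tested. Where libraries were left out, the fits also had fewer of them, and the part of that was not tested either.

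From day 0 to day 2 in EV 1 member passed. With the replicate block it was 5, without experiment 1, 2 or 4 it was 0, without experiment 3 it was 2 and without experiments 4 and 5 it was 0. By day 4 in EV 5 passed, against 3 with no filter, 3, 2 and 3 without experiments 2, 5 and 6, and 3 without experiments 4 and 5. With the replicate block 2 rose and 5 fell by day 4 in each transfection. By day 2 in P 3 passed, against 1 with no filter, 5 with the replicate block, 1, 0 and 0 without experiments 1, 5 and 6, and 0 without experiments 4 and 5. By day 2 in PY 5 passed, against 3 with no filter, 2, 2, 1 and 2 without experiments 1, 2, 5 and 6, and 0 without experiments 4 and 5. From day 2 to day 4 the replicate block gave 2 in EV and 3 in P in place of 0. Against EV the block of experiment and day gave 2 and 2 in P on days 2 and 4, and 2 and 3 in PY. PY on day 2 had 1 with DESeq2 and 1 with the experiment block. The relation of Arntl with Per3 was 0.237 without experiments 4 and 5.

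Leaving out 1 library at a time gave 1 to 2 by day 2 and 3 to 6 by day 4 in EV, 1 to 4 and 5 to 7 in P, and 1 to 5 and 5 to 7 in PY. It gave 0 to 1 for PY against EV on day 2 and 0 in every other comparison whose count was 0. The number of members that differed between experiments was 9 to 10 without any 1 experiment.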
